A study of Mus musculus with 7 samples.

Results

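The genes described here encode the proteins of the cytosolic ribosome, measured in cancer-associated fibroblasts (CAFs) of mouse pancreatic tumors. Within this group, genes were taken by their symbols: gene symbols of the form Rpl or Rps followed by a number, the stalk genes Rplp0, Rplp1 and Rplp2, and Rpsa, with symbols marked as pseudogenes left out. This gave 78 of the 12771 genes listed, of which 29 encode small subunit proteins, 41 encode large subunit proteins, 3 encode the stalk and 5 are paralogs of a subunit gene. Several subunit genes whose names have another form, Fau, Rack1 and Rpl36al among them, fall outside this rule and were kept as a separate list. Some genes that would fit the rule, Rps20, Rps27, Rpl26 and Rpl30 among them, are not among the genes listed.

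CAFs were sorted from orthotopic tumors formed by KPC cells, a mouse pancreatic cancer line, in male C57BL/6 mice (J substrain) that were 8 weeks old at injection, and tumors were taken 2 to 3 weeks later. The KPC cells carried either a non-targeting hairpin RNA (KPC-shControl, 3 libraries, replicates 1, 2 and 4) or a hairpin against Brca2, a gene of homologous recombination repair (KPC-shBrca2, 4 libraries, replicates 1 to 4). The hairpins were in the injected cancer cells and the fibroblasts came from the host mice. The comparison is thus of fibroblasts from tumors whose cancer cells did or did not have Brca2 knocked down. The groups differ by transduced line, so an effect of the hairpin or the line cannot be told apart from that of Brca2. Live podoplanin-positive cells without CD45, CD31 or EpCAM were sorted, and MARS-seq libraries were read from the 3' end of their poly(A) RNA. The labels do not tie libraries to animals, but the numbers of mice in the study's legends for the sorted CAFs equal the numbers of libraries, so each library is taken as a separate mouse. Where a value is given for each library, the order is replicates 1, 2 and 4 of shControl, then replicates 1 to 4 of shBrca2.

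A ribosome is built from a small subunit, which decodes the mRNA, and a large subunit, which joins amino acids, and each ribosomal protein is present about once per particle apart from the stalk proteins. Their genes are among the most highly transcribed of a growing cell and are commonly seen to move together. In mammals most of their mRNAs begin with a C followed by a run of pyrimidines, the terminal oligopyrimidine (TOP) tract, through which mTORC1 and the binding protein Larp1 set how strongly they are translated. A change in translation of this kind need not appear in mRNA counts, which is what was measured here.

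The start sites of 10 genes described below are shown, some with the tract and some without, because it is the sequence feature the group is known for. They are among the genes with the smallest p or the widest spread between libraries, except Rplp2 of the stalk and Rps4x, the partner of a paralog. Each line gives 10 bases before and 20 bases from the annotated start, 5' to 3' on the gene's strand, from RefSeq on GRCm38.p6, and capitals mark a C within 5 bases of the start and the C and T bases that follow it without a break.
Rpl38: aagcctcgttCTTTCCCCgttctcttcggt
Rps26: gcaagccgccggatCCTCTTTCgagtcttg
Rpl12: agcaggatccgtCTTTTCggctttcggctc
Rps6: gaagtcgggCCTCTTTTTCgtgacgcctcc
Rplp2: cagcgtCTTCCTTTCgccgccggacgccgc
Rpl22l1: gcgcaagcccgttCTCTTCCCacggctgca
Rpl39: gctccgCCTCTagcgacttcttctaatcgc
Rps3: aagggtcgccgcgctgcgcggcgtcattgc
Rpsa: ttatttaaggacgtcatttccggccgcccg
Rps4x: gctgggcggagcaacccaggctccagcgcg
The tract stands at the annotated start of the first 7 and not of the last 3. The libraries were read from the 3' end, so the start used in these cells was not measured. A window without the tract does not show that the mRNA lacks it. The windows lie at chr11:114668570-114668599 on the plus strand for Rpl38, chr10:128626487-128626516 on the minus strand for Rps26, chr2:32961702-32961731 on the plus strand for Rpl12, chr4:86857348-86857377 on the minus strand for Rps6 and chr7:141447641-141447670 on the plus strand for Rplp2. Those of the other five lie at chr3:28805498-28805527 on the plus strand for Rpl22l1, chrX:37085203-37085232 on the minus strand for Rpl39, chr7:99483690-99483719 on the minus strand for Rps3, chr9:120127756-120127785 on the plus strand for Rpsa and chrX:102189372-102189401 on the minus strand for Rps4x.

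Start-site windows of 250 bases before to 50 bases after the start were found for 59 of the 78 genes, 70 windows in all because some genes have more than one start. The tract, counted as such a C followed by 4 or more C or T, was present in 31 of these 70 windows (44.3%) and in 18.3% of 32851 mouse windows of the same length. The ETS motif CCGGAAG, searched on both strands, was present in 25 windows (35.7%) against 8.86% of all windows. The YY1 motif AAGATGG was present in 11 (15.7% against 6.34%), the GC box GGGCGG in 44 (62.9% against 35.7%), the E-box CACGTG, to which Myc and Max bind, in 8 (11.4% against 7.15%) and TATAAA in 8 (11.4% against 13.6%). The tract was the only motif tied to the start site, and no 2 of these 6 motifs contain one another. These counts describe letters in a window around an annotated start, not binding, and do not tell which mRNAs begin with the tract.

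The libraries held from 1898679 to 5990579 counts, and the ranges of the groups overlapped. Fibroblast markers were abundant in every library, with summed normalized counts of 10 genes from 125620 to 144438 in shControl and from 100464 to 120032 in shBrca2. Epithelial markers, of which 7 of 10 were in the table, summed to 413 to 1163 in shControl and 1471 to 2083 in shBrca2, and 5 of the 7 were called higher. The 9 immune markers in the table summed to 314 to 335 and 386 to 497, the 8 mesothelial markers to 918 to 2935 and 2454 to 2971, the 6 pericyte markers to 688 to 1230 and 1219 to 1608, the 5 endothelial markers to 126 to 187 and 133 to 171, the 11 acinar markers to 181 to 349 and 105 to 174, and the 2 erythroid markers to 3.42 to 10.7 and 45.5 to 92.1. These sums hide calls in both directions. Of the immune markers, Csf1r and C1qa were called higher and Jchain and Mzb1 lower. Of the acinar markers, 6 were called lower and Cela1 higher, with means of 56.9 in shControl and 111 in shBrca2. Called higher were 2 mesothelial, 2 pericyte and 1 erythroid marker, with none lower. Krt19 stands in both the epithelial and the mesothelial list, so it enters both sums and both counts of calls. Of the fibroblast markers 2 were called lower, and no endothelial marker was called. The defining markers Epcam and Ptprc are not among the genes analysed here. Brca2 itself had 5 to 21 counts per library, which does not check the hairpin because it acted in other cells. In RNA of a whole sort, more cells of a type and more RNA per cell cannot be told apart, and the part of these markers in the results below was not tested.

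Ribosomal protein genes took a large share of the RNA in both groups. Their summed counts were 9.13%, 7.73% and 7.46% of the library in shControl and 9.80%, 8.24%, 10.69% and 10.02% in shBrca2. The means were 8.11% ± 0.896 (SD, n = 3) and 9.69% ± 1.04 (SD, n = 4). The difference of 1.58 percentage points was larger than either SD, but the groups overlapped, since shControl 1 lay above shBrca2 2. The 95% Wilson intervals reached at most 0.044 points to either side, so counting error was small beside the spread between libraries. The 5 genes with the most counts, Rplp1, Rpl4, Rps2 and Rpl41 among them, did not carry the difference alone, as 1.31 points remained without them. A higher share was not particular to these genes. Mitochondrial ribosomal protein genes took 0.413%, 0.428% and 0.386% in shControl and 0.471%, 0.429%, 0.450% and 0.489% in shBrca2, where the groups nearly met. A share depends on all other counts, and scaling by total count moved the median log2 fold change of all genes to 0.12. The part of this in the difference was not tested. Counts of the small subunit were 0.817 ± 0.008 (SD, n = 3) of those of the large subunit and stalk together in shControl and 0.803 ± 0.034 (SD, n = 4) in shBrca2, a difference smaller than the shBrca2 SD.

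**Figure D1:**
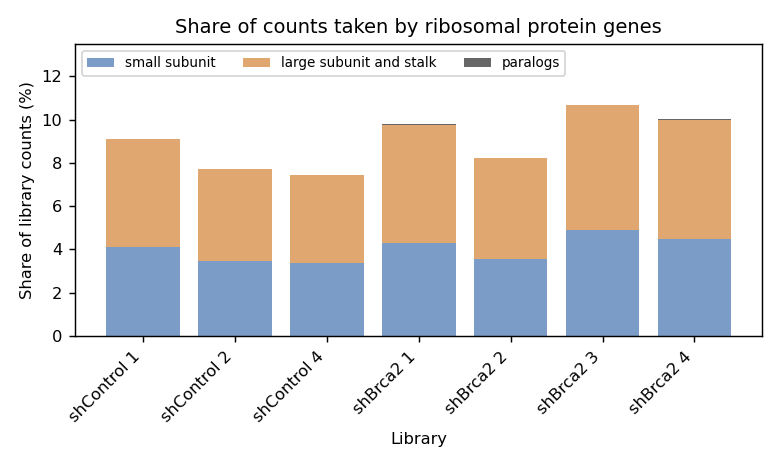
Percent of each library's counts assigned to ribosomal protein genes, with 1 bar per library, stacked as small subunit genes, large subunit and stalk genes, and paralogs (too few counts to see). shControl 1 stands at 9.13% and the other shControl libraries at 7.73% and 7.46%, and the shBrca2 libraries run from 8.24% to 10.69%.

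Gene by gene, few of these genes differed between the groups. A call needed a DESeq2 adjusted p under 0.1, a log2 fold change beyond 0.5 in either direction and more than 5 normalized counts on average. None of the 78 genes was called higher, where 3.77% of the 12768 genes tested were, and 1 of the 78, Rps4l, was called lower, where 5.27% were. In either direction, 9.04% of all genes tested were called. At an unadjusted p under 0.05 there were 8 genes, 6 higher and 2 lower, against 17.7% of all genes tested. An adjusted p under 0.1 at any fold was reached by 2 genes, Rps4l and Rpl38, against 9.79% of all. The quasi-likelihood test of edgeR also called none higher and called Rps4l lower, and 4 genes had an unadjusted p under 0.05. A mean over 5 normalized counts was reached by 76 of the 78, and Rpl34 and Rpl32l could not have been called.

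The fold changes were small and mostly of 1 sign. Of the 78 log2 fold changes, shBrca2 over shControl, 66 were above 0 (84.6%, against 50.8% of all genes tested) and their median was 0.14, where the median of all genes tested was 0.01. The median was 0.11 over the 29 small subunit genes, 0.15 over the 41 large subunit genes, 0.13 over the stalk genes and 0.09 over the paralogs. For the 61 ribosomal protein genes with a mean normalized count over 1000 it was 0.14, and for the 523 other genes over 1000 it was -0.09. The number above 0 depended on the libraries used: it was 49 without shBrca2 3, 50 without shControl 4, 54 without shControl 2 and 74 without shControl 1. With the replicate number added to the model as a block, it was also 49. The median was 0.06 without shControl 4, 0.09 without shBrca2 3 and 0.23 without shControl 1. With scaling by total count 73 were above 0 and their median was 0.25, where that scaling moved the median of all genes to 0.12.

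The precision of these estimates bounds what could have been missed. The median standard error of the log2 fold change was 0.17, where that of all genes tested was 0.30. An interval of 2 standard errors to either side stayed within a log2 change of 1 for 71 of the 78 genes and within 0.5 for 40 of them. A doubling or halving was thus outside the interval for most of these genes, and a change of the size of the median was not detectable for a single gene.

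**Figure D2:**
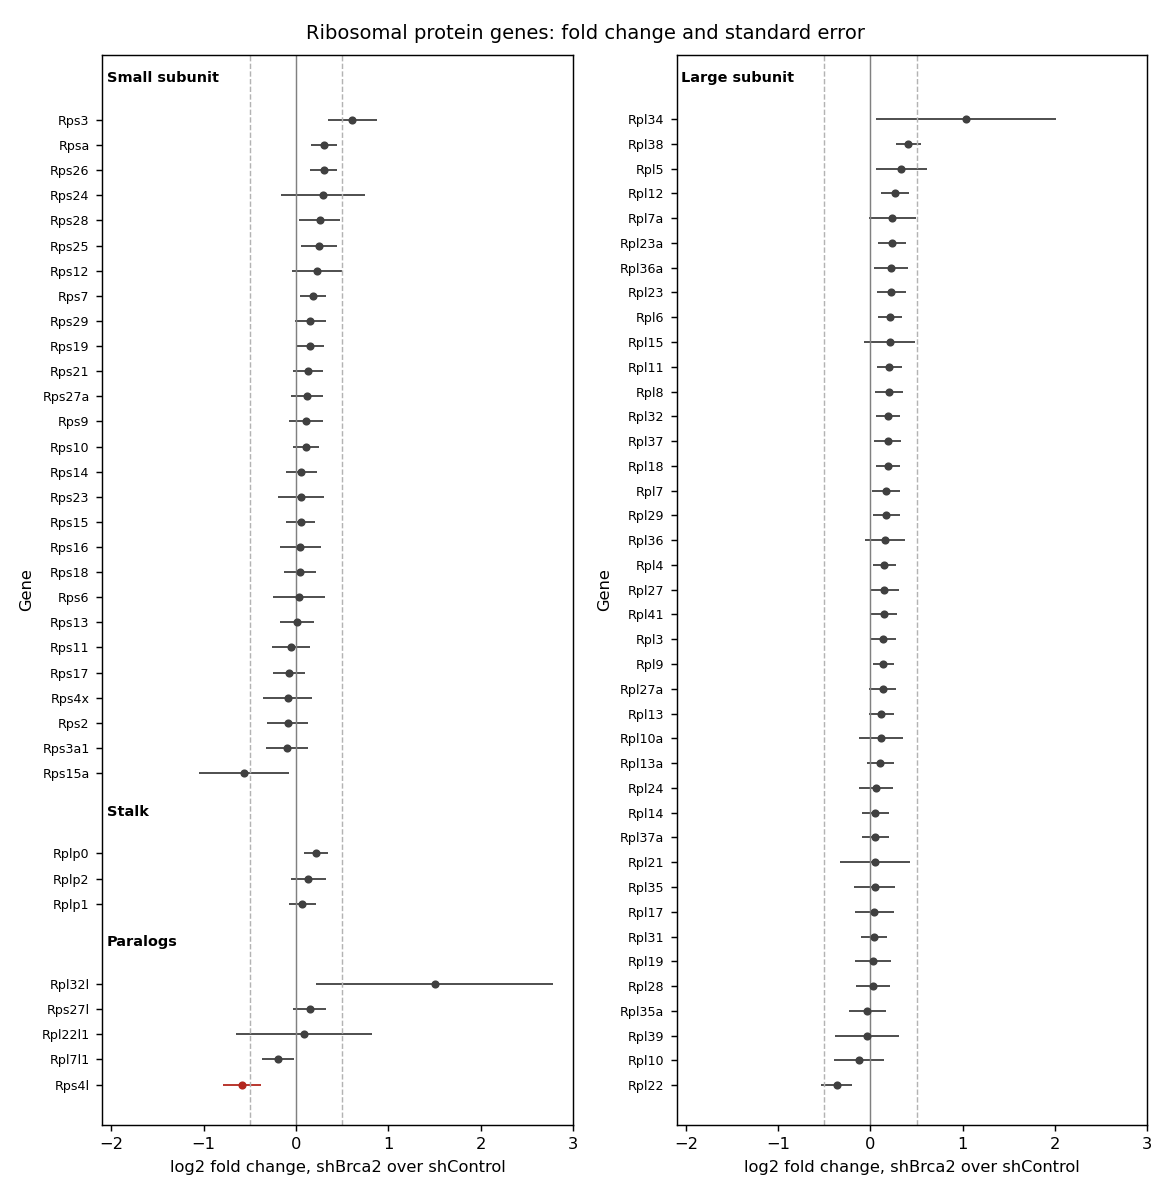
Log2 fold change, shBrca2 over shControl, of 75 of the 78 genes (points) with its standard error (bars), grouped as small subunit, stalk and paralogs on the left and large subunit on the right; the dashed lines mark 0.5 to either side. Most points lie slightly to the right of 0, Rps4l (red) is the only called gene, and the wide bars belong to Rpl32l, Rpl34 and Rpl22l1.

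Rps4l, a second Rps4 gene without introns, was the called gene. GENCODE lists it as protein coding, and RefSeq lists it as a transcribed pseudogene at chr6:148354656-148355596 of GRCm38.p6. Its normalized counts were 278, 311 and 212 in shControl and 182, 210, 155 and 157 in shBrca2. The groups did not overlap, though shControl 4 and shBrca2 2 nearly met, and 9.30% of all genes tested also had every shBrca2 library below every shControl library. Its log2 fold change was -0.59 ± 0.21 (SE) with a DESeq2 adjusted p of 0.057. The call was lost without any 1 of 5 libraries, with DESeq2 adjusted p of 0.208 without shBrca2 1, 0.147 without shBrca2 3, 0.265 without shBrca2 4, 0.256 without shControl 1 and 0.240 without shControl 2, and it was kept without shBrca2 2 or shControl 4. It was also lost when libraries were scaled by their total count, where the log2 fold change was -0.48 and the DESeq2 adjusted p was 0.138.

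Rps4x, the X-linked gene for the main form of the same small subunit protein, did not follow it. It had 2018, 1070 and 1456 normalized counts in shControl and 1229, 1211, 2066 and 1194 in shBrca2. The 2 highest libraries, shControl 1 and shBrca2 3, were in different groups, and the log2 fold change was -0.09 ± 0.26 (SE). The last 200 coding bases of Rps4l have 1 other close copy in the genome, and 24.1% of the 60-base windows in them are repeated elsewhere, while for Rps4x there are 9 copies and 78.0% of the windows, so reads of these genes may be shared with copies.

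Rpl38, a small protein of the large subunit known for tissue-specific patterning defects when it is lost, had the smallest p of the group. Its normalized counts were 2837, 2586 and 2229 in shControl and 3348, 3244, 3420 and 3559 in shBrca2. Every shBrca2 library lay above every shControl library, as for 7.79% of all genes tested and for 8 of the 78. The log2 fold change was 0.41 ± 0.14 (SE) with a DESeq2 adjusted p of 0.044, and it stayed below the minimum fold for a call. With scaling by total count the value was 0.53 and passed, with a DESeq2 adjusted p of 0.012. The adjusted p was 0.142 with edgeR and ran from 0.099 to 0.416 in DESeq2 with 1 library left out, under 0.1 only without shControl 1.

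Rps3, which lies where mRNA enters the small subunit and also acts in DNA repair, had the largest positive value among the abundant genes. It had 918, 1602 and 958 normalized counts in shControl and 2273, 1827, 1102 and 1874 in shBrca2. One library of each group lay with the other group, shControl 2 at 1602 and shBrca2 3 at 1102, so the groups overlapped. The log2 fold change was 0.61 ± 0.27 (SE), and the DESeq2 adjusted p of 0.189 missed the threshold. Without shControl 2 the value was 0.92 with a DESeq2 adjusted p of 0.011, and without shBrca2 3 it was 0.78 with 0.024, so a call for this gene turned on either library. Only 2.84% of the 60-base windows near its coding end are repeated elsewhere in the genome.

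Among the other genes with the smallest p, Rps26, in the small subunit at the exit of the mRNA, had 7483, 7728 and 5911 normalized counts in shControl and 8680, 7988, 9038 and 9004 in shBrca2. The groups did not overlap, and the log2 fold change was 0.30 ± 0.15 (SE, DESeq2 adjusted p = 0.252). Rpsa, the small subunit protein also known as the laminin receptor, had a log2 fold change of 0.30, and Rpl12, at the base of the stalk, had 0.27. Neither passed the test, and the groups overlapped for both. All 3 genes were highest in a shBrca2 library and lowest in shControl 4.

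The stalk proteins, which recruit elongation factors to the large subunit, had no member past the test. Rplp0, the stalk base, had 6918, 5584 and 6258 normalized counts in shControl and 7423, 6893, 7470 and 7201 in shBrca2, a log2 fold change of 0.21 ± 0.13 (SE). Rplp1, with the most counts of the 78, had 19434, 19028 and 14543 against 18727, 17848, 19186 and 18394, a log2 fold change of 0.07 ± 0.15 (SE). Rplp2, its partner in the stalk, had 6812, 5096 and 4340 against 5412, 5720, 7055 and 5576, a log2 fold change of 0.13 ± 0.19 (SE). All 3 were highest in shControl 1 among the control libraries and in shBrca2 3 among the others.

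Of the genes with a paralog, Rpl22, a large subunit protein that also binds cellular RNAs, had 274, 221 and 283 normalized counts in shControl and 197, 205, 197 and 210 in shBrca2. The groups did not overlap, and the log2 fold change was -0.36 ± 0.17 (SE, DESeq2 adjusted p = 0.209). Its paralog Rpl22l1, whose level is known to be held down by Rpl22, had 136, 44.3 and 27.2 against 43.9, 51.9, 149 and 51.8. Here 1 library of each group stood far above the rest, and the log2 fold change of 0.09 ± 0.74 (SE) has an error too wide to show a change in either direction.

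Rpl39, at the exit tunnel of the large subunit, had 733, 267 and 293 normalized counts in shControl and 319, 382, 611 and 377 in shBrca2, again with shControl 1 and shBrca2 3 highest, and a log2 fold change of -0.03 ± 0.35 (SE). Rps27l, a paralog of Rps27 that p53 induces, had 360, 307 and 249 against 305, 333, 370 and 349, a log2 fold change of 0.15 ± 0.18 (SE). Rpl7l1, a paralog of Rpl7 that acts in assembly of the large subunit, had 179, 164 and 172 against 150, 153, 168 and 133, a log2 fold change of -0.19 ± 0.18 (SE). Rpl3, at the peptidyl transferase center, had a log2 fold change of 0.14 ± 0.13 (SE). None of these passed the test.

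**Figure D3:**
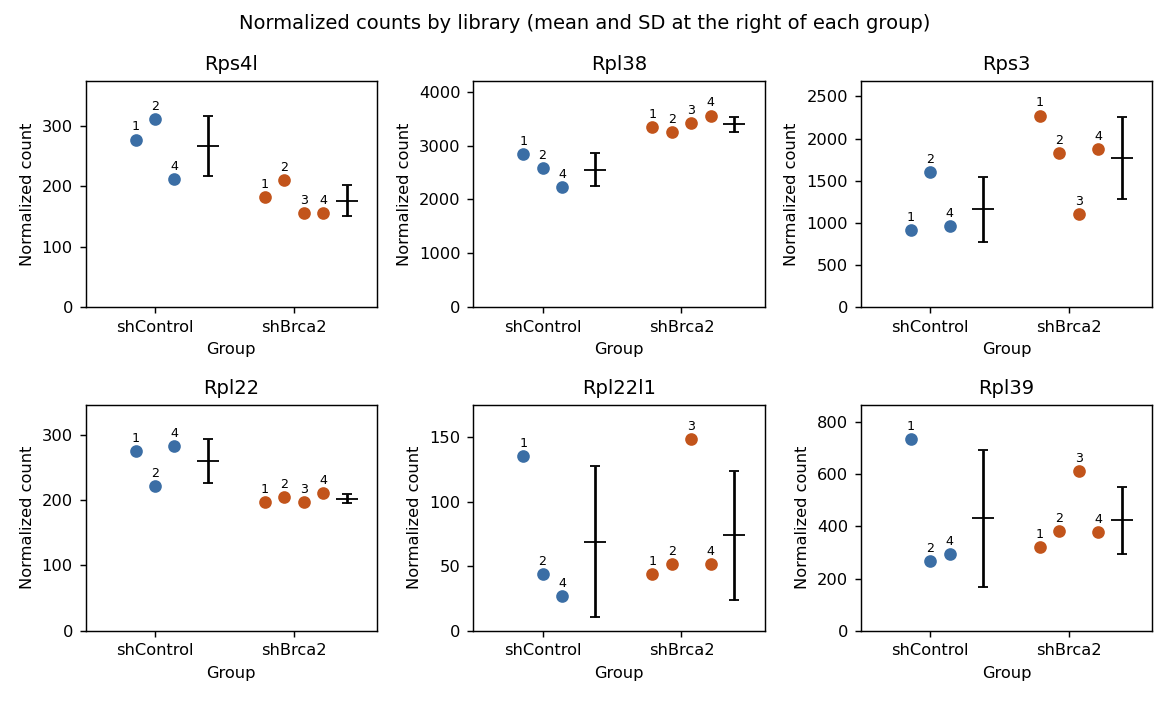
Normalized counts of 6 ribosomal protein genes in each library (points, numbered by replicate), with the mean and SD at the right of each group. Rps4l and Rpl22 are lower and Rpl38 higher in all 4 shBrca2 libraries, Rps3 overlaps through shControl 2 and shBrca2 3, and Rpl22l1 and Rpl39 are highest in shControl 1 and shBrca2 3.

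Many of the 78 genes also varied together in a way that did not follow the groups and that set shControl 1 and shBrca2 3 apart from the other 5 libraries. Each gene's log2(normalized count + 1) was taken as a deviation from its own mean over the 7 libraries. The median deviation of the 78 genes was 0.12, -0.17 and -0.19 in shControl and 0.00, -0.06, 0.22 and 0.06 in shBrca2, so libraries of 1 group lay farther apart than the groups did in the median fold change. The proteins of the mitochondrial ribosome, which is built from another gene set, had median deviations between -0.07 and 0.10 over 74 genes, with no such rise in shControl 1 (-0.04) or shBrca2 3 (-0.04).

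**Figure D4:**
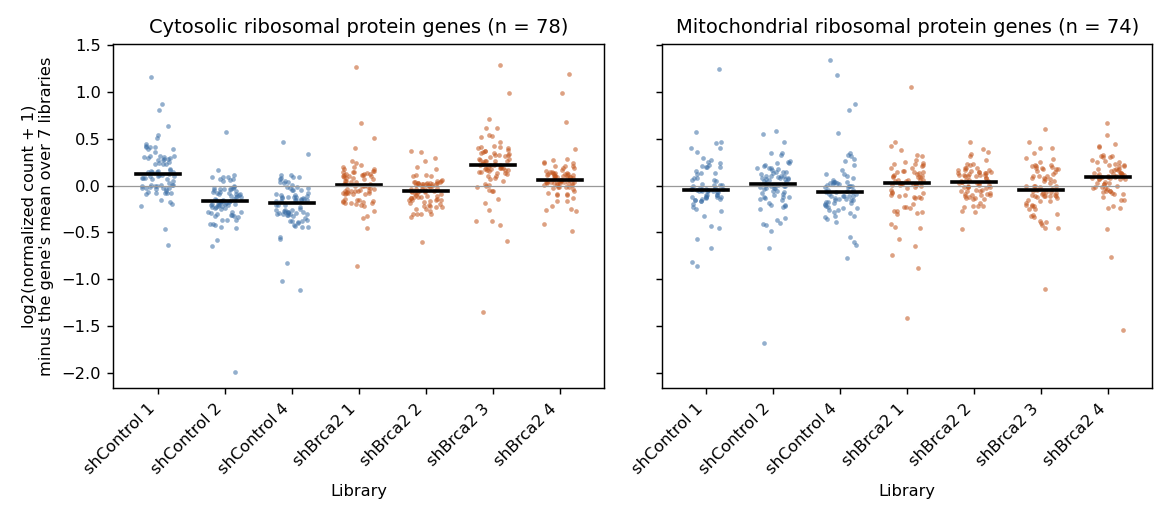
Deviation of log2(normalized count + 1) from each gene's mean over the 7 libraries, with 1 point per gene and the median as a bar, for the 78 cytosolic (left) and 74 mitochondrial (right) ribosomal protein genes. The cytosolic genes sit highest in shControl 1 (median 0.12) among the controls and in shBrca2 3 (median 0.22) among the shBrca2 libraries, and the mitochondrial medians stay between -0.07 and 0.10.

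Counted by gene, shControl 1 was the highest shControl library for 63 of the 78 genes and shBrca2 3 the highest shBrca2 library for 53. Both held for 48 genes (61.5%), where both held for 9.60% of 11632 genes averaging over 5 normalized counts and for 6.88% of the 523 other genes over 1000. It held for 6 of 74 mitochondrial ribosomal protein genes and 4 of 22 translation factor genes, and for 2 of the 4 cytosolic subunit genes outside the naming rule. For 32 of the 78 (41.0%), these 2 libraries were above all 5 others, as they were for 4.58% of the 11632 genes. The pattern was seen in these data first and is given as a description.

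The ratio of the mean of these 2 libraries to the mean of the other 5 had a median of 1.15 over the 78 genes, with 68 above 1 and 10 below, and its median over the 523 other abundant genes was 0.965. It reached 1.3 or more for 25 genes. It was 3.24 for Rpl22l1, 2.12 for Rpl34, 2.05 for Rpl39, 1.67 for Rpl10, 1.66 for Rps4x and 1.59 for Rps12. It was 1.58 for Rps23, 1.53 for Rps15a and 1.47 for Rps3a1, where Rpl34 and Rps15a had very few counts. It was below 1 for Rps3 (0.592), Rpl8 (0.899) and Rpl27 (0.940), so abundant genes of the same particle were found at both ends. Rank correlations of the ratio across the genes were -0.28 with coding length, -0.17 with mean normalized count and 0.10 with the number of genomic copies, given as a description over genes that share the same libraries. The median ratio was 1.22 over 29 genes with the tract at an annotated start and 1.14 over 30 without. Their median log2 fold changes between the groups were 0.11 and 0.15. This split follows annotated starts only and does not separate TOP mRNAs from others.

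Other measures also set these libraries apart, some in 1 of them only and some in both. shBrca2 3 had the lowest total count, 1898679, and the highest count of the long noncoding RNA Meg3, 6561 normalized counts against 2771 to 4488 in the other 6 libraries. Malat1, another nuclear noncoding RNA, did not set it apart and followed the groups, with 52.1, 43.0 and 46.7 in shControl and 126, 76.4, 69.1 and 150 in shBrca2, and was called higher (log2 fold change 1.16 ± 0.31 SE, DESeq2 adjusted p = 0.0076). shControl 1 had the highest acinar marker sum, 349 against 105 to 221 in the others. It also had the lowest epithelial (413), mesothelial (918), pericyte (688), endothelial (126) and erythroid (3.42) marker sums. Within its own group, shBrca2 3 likewise had the highest acinar sum, 174 against 105 to 171. Its pericyte sum (1219 against 1328 to 1608) and endothelial sum (133 against 153 to 171) were the lowest of that group. Its epithelial, mesothelial and erythroid sums were not. The part of these measures in the pattern, and of Malat1 in the differences between the groups, was not tested. Without both libraries none of the 78 genes was called in either direction, 67 of the 78 log2 fold changes were above 0, their median was 0.18 and the share difference was 1.76 points.

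A few ribosomal protein genes had hardly any counts assigned to them. The mean normalized count was 2.01 for Rpl32l, a paralog that GENCODE lists as a transcribed processed pseudogene and RefSeq as protein coding. That mean was 4.01 for Rpl34, 12.3 for Rps15a, 16.8 for Rps24, 19.3 for Rpl21, 61.6 for Rpl5 and 102 for Rpl15. The median of the 78 genes was 3452. These are counts of 3' end reads that were not scaled by length, for proteins that enter the same particle about once. Near-identical genomic copies (at least 90% identity over at least 75% of the last 200 coding bases) were found for 75 of 77 genes with a coding sequence, with a median of 11 and up to 96 for Rpl7a. There were 86 copies for Rpl21, 21 for Rpl15, 13 for Rps15a, 12 for Rpl5, 11 for Rps24 and 8 for Rpl34. For 40 genes every 60-base window of this stretch recurs elsewhere in the genome, while the share was 28.4% for Rps24 and 73.8% for Rpl34. The rank correlation of copy number across the genes was -0.11 with the mean normalized count and -0.03 with the log2 fold change. How reads with several matches were handled is not given in the sources used here, and its part in these low counts was not tested. Exon bases are shared with a gene on the opposite strand for 46 of the 78, and counting by strand is not given in the sources used here.

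Rps6, the small subunit protein that S6 kinase phosphorylates, was low in 1 library only. It had 878, 611 and 612 normalized counts in shControl and 376, 823, 858 and 807 in shBrca2, with shBrca2 1 far below the other 6 libraries. Its log2 fold change was 0.03 ± 0.28 (SE). Rps12, named after its values were seen, had 8284, 5565 and 5867 against 5461, 5524, 11361 and 8444, with shBrca2 3 highest and shBrca2 1 lowest.

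Genes that make, regulate or work with the ribosome were followed in fixed lists. The 4 subunit genes outside the naming rule had a median log2 fold change of 0.20 and none was called. Rack1, the scaffold on the small subunit, had 8930, 8544 and 8172 normalized counts in shControl and 10355, 9057, 10121 and 10189 in shBrca2, which did not overlap, with a log2 fold change of 0.22 ± 0.12 (SE). Of 22 translation factor genes and others with known TOP mRNAs none was called, with a median of 0.17. Npm1, a nucleolar chaperone, and Eef1b2, an exchange factor of elongation, came closest at log2 fold changes of 0.47 ± 0.17 (SE) and 0.46 ± 0.16 (SE), with DESeq2 adjusted p of 0.067 and 0.065 and a fold under the minimum. Eef1a1, which brings aminoacyl-tRNA to the ribosome, had -0.24 ± 0.24 (SE).

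None of 14 genes of the RNA polymerase I machinery, which makes ribosomal RNA, was called (median 0.04), nor any of 11 ribosome rescue genes (median 0.20), of 4 genes of the p53 surveillance of ribosome assembly (median 0.02) or of 74 mitochondrial ribosomal protein genes (median 0.08). Of 42 ribosome biogenesis genes 1 was called lower and none higher (median 0.10). That gene, Nop2, a methyltransferase of large subunit rRNA, had 316, 516 and 319 normalized counts in shControl and 209, 247, 252 and 184 in shBrca2, with no overlap and a log2 fold change of -0.78 ± 0.23 (SE, DESeq2 adjusted p = 0.013). Without shControl 2, its highest library, the value was -0.51 and the DESeq2 adjusted p was 0.117. Of 12 chaperones and importers of ribosomal proteins, Ipo7 was called higher, at 115, 102 and 80.7 against 183, 153, 136 and 131, a log2 fold change of 0.61 ± 0.22 (SE, DESeq2 adjusted p = 0.076). That call was lost without any of the libraries except shBrca2 3, with DESeq2 adjusted p from 0.126 to 0.445.

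Of 22 growth regulators, 2 were called higher and 1 lower, with a median of -0.01. Myc, a transcription factor known to drive ribosomal protein and ribosome biogenesis genes, had 1672, 557 and 1923 normalized counts in shControl and 280, 602, 589 and 312 in shBrca2. It was high in shControl 1 and shControl 4 only, and shControl 2 lay between the shBrca2 libraries. The log2 fold change was -1.64 ± 0.54 (SE) with a DESeq2 adjusted p of 0.040, and the call was lost without shControl 1 (0.237), shControl 4 (0.239) or shBrca2 4 (0.192).

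Ddit4, an inhibitor of mTORC1 that stress induces, was called higher at 716, 1050 and 676 normalized counts in shControl against 1487, 1487, 1010 and 1374 in shBrca2. Its log2 fold change was 0.72 ± 0.21 (SE, DESeq2 adjusted p = 0.018), and shControl 2 lay just above shBrca2 3. That call was lost without shControl 1 (0.147), shControl 4 (0.157) or shBrca2 1 (0.109). Mxi1, which competes with Myc for Max, was called higher at 58.1, 78.4 and 49.6 against 92.9, 115, 140 and 81.3, with no overlap, a log2 fold change of 0.79 ± 0.27 (SE, DESeq2 adjusted p = 0.051). That call was lost without shControl 1, shControl 4, shBrca2 1, shBrca2 2 or shBrca2 3, with DESeq2 adjusted p from 0.116 to 0.313. Larp1, the TOP mRNA binding protein, had a log2 fold change of -0.49 and did not pass the test (DESeq2 adjusted p = 0.20).

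**Figure D5:**
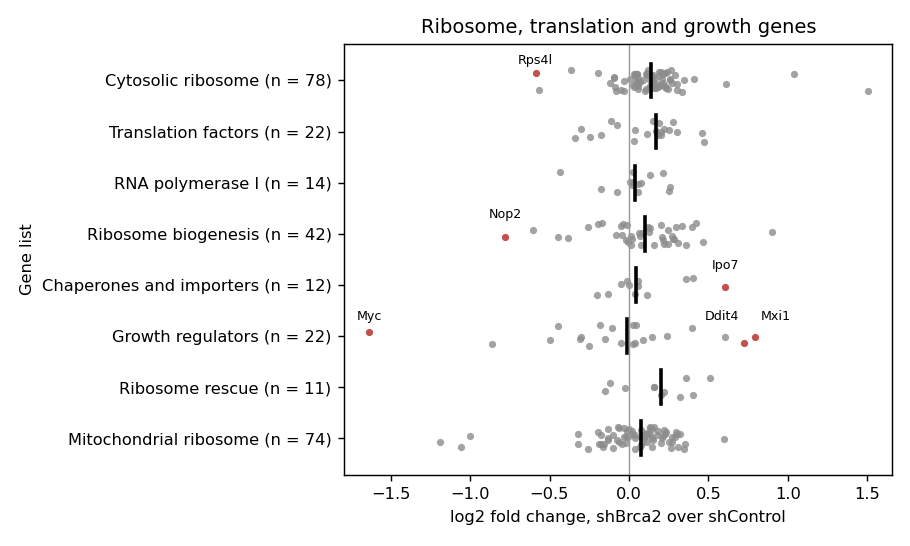
Log2 fold change, shBrca2 over shControl, of each gene of the ribosomal protein group and of 7 fixed lists (points; called genes red and named), with the median of each list as a bar. The medians lie between -0.01 and 0.20, and the called genes are Rps4l, Nop2 and Myc below 0 and Ipo7, Ddit4 and Mxi1 above 0.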

How the data were processed

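RNA counts of 7 libraries of sorted CAFs were analysed. The authors deposited raw counts per gene symbol, whole numbers that were not normalized; per the submitters' processing notes the tools included cutadapt, STAR 2.4.2a and HTSeq with mm10. Strand handling, reads with several matches and collapsing of molecular barcodes are not given in the sources used here, so counts may include PCR copies and intervals cover counting error only.

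Groups came from the labels. DESeq2 1.42.0 (R 4.3.3) was run on all 12771 genes after the study's methods: size factors by median of ratios, and the likelihood ratio test comparing models with and without the group, with no covariate. The adjusted p is Benjamini-Hochberg over all genes, with calls as defined above. Normalized counts are counts divided by size factors, fold changes were not shrunken, and 3 genes without a p were left out of the counts over all genes tested. The code was tested on simulated data. Total counts per library ran from 1898679 to 5990579.

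The members, taken by symbol, and the lists were chosen with earlier results of these data known, so no list test or list-adjusted p was made. Named genes were the called members, the 10 with the smallest p, stalk genes, paralogs and their partners, the 5 with the widest spread (mean normalized count over 5), and up to 4 called genes of each other list. Other genes given with values, such as Rpl10, Rack1 and Npm1, were chosen with their values in view. Some genes enter the counts and medians but are not reported here by name. Gene copies were found with BLAST 2.17.0 in GRCm39 with GENCODE models. Alternatives were TMM factors and the quasi-likelihood test (edgeR 4.0.16), other scalings and filters, a replicate block and leaving out libraries.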

Additional observations from a re-analysis of the deposited data

Results flagged for a closer look

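In groups of 4 libraries, a value was set aside when the gap between the highest or lowest library and its nearest neighbor took a larger part of the group's whole range than the 95% critical value of Dixon's test. Only shBrca2 has 4 libraries, so 47 of its values were tested and 5 met this. Chance gives about 1 in 20, but some of these genes had been named for their wide spread between libraries, so their number is not to be read against that rate. Rps4x was the clearest, with a ratio of 0.96: shBrca2 3 had 2066 normalized counts and the other 3 libraries 1194 to 1229. Rpl22l1 had a ratio of 0.924, with 149 in shBrca2 3 and 43.9 to 51.9 in the others. Rps6 had a ratio of 0.894 from the other side, with 376 in shBrca2 1 and 807 to 858 in the others. Outside the ribosome, the plasma cell marker Mzb1 (0.852) and the pericyte marker Notch3 (0.899) also met it. Mzb1 had only 0.861, 5.83, 0 and 0 normalized counts in shBrca2, so its ratio rests on very few counts. Notch3 had 122, 72.3, 128 and 125. Over all 78 ribosomal protein genes, 8 had such a library. The share over all genes is not given here, so this number is not to be read as an excess.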

How the results depend on the processing

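The count of ribosomal protein genes called higher, 0, became 1 (Rps3) with the replicate block, 2 (Rpl38 and Rps3) with size factors from total counts and 1 (Rpl38) with no minimum fold. It ran from 0 to 1 with 1 library left out. The count called lower, 1, became 0 with the block, with total counts and without shControl 1 and shBrca2 3 together (an alternative chosen after seeing the data), and ran from 0 to 1 with 1 library left out. The median log2 fold change, 0.14, ran from 0.06 to 0.23 with 1 library left out, was 0.10 with the block and 0.25 with total counts, where the median of all genes was 0.12. The share difference stayed between 1.24 and 2.09 points. Over all genes, total counts turned 481 higher and 673 lower calls (41.7% higher) into 708 and 502 (58.5% higher), and the block left 211 and 280. Same-numbered libraries did not deviate together (correlations of -0.07, -0.10 and -0.09, with no library nearest to its own number). No pairing by replicate number was seen, but so few pairs cannot exclude a shared batch. For 46 named genes, 574 of 680 values under alternatives kept their direction and side of the threshold, 21 of uncalled genes changed sign, 79 lost and 6 gained a call, and no call reversed. The causes were not tested. With 3 and 4 libraries, shifts near the median were not detectable per gene.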
